A study of Drosophila melanogaster with 38 samples.

Results

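The values described here are the label on chromatin before any chase, compared between larvae that lack OGA and wild-type larvae of Drosophila melanogaster. The members are all 1883 peaks of the deposited O-GlcNAc-seq table, which is the whole list. Each peak has 1 value for wild-type (WT) and 1 for OGA-null larvae at 0 h, and each was divided by the width of its peak to give a signal per base. The ratio of OGA-null to WT is the measure followed throughout.

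O-GlcNAc is a single sugar that the transferase OGT places on serine and threonine residues of proteins in the nucleus and the cytoplasm, and OGA is the hydrolase that removes it. In flies OGT is encoded by the Polycomb group gene super sex combs, and Polyhomeotic is a well known chromatin substrate. A fed azide sugar enters the nucleotide sugar pool and is placed on the same proteins, so the azide marks sugars added during feeding and not all of the O-GlcNAc present.

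WT larvae were of the Oregon R strain. OGA-null larvae carried a knockout of OGA, on a background also given as Oregon R; the allele is not named in the fields used here. Both were laid and raised on food with 150 uM Ac4GalNAz, were collected as whole larvae after 36 h without further growth on plain food, and were pooled from many parents. Each genotype had 2 biological replicates at this time, 4 libraries in all of the 38 in the series, and the labelled chromatin was coupled by click chemistry, purified on streptavidin and sequenced. Per the file header, each deposited column combines both replicates, so there is no spread between replicates and no test of the genotype difference. Totals per library are not in the table, and depth is unknown. Unfed larvae were not analysed here, and the background without label is therefore missing. In whole larvae, fewer labelled cells and less label per cell cannot be told apart. Positions are those of the dm3 build with the first base as 1; sequences and genes of that build were not used here.

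Before the chase, nearly every peak carried less scaled signal in OGA-null larvae. The WT signal per base had a median of 32.9, with 26.7 at the 5th and 42.7 at the 95th percentile of peaks. The OGA-null signal per base had a median of 22.8, with 20.4 and 27.1 at those percentiles. The lowest peak was at 20.6 in WT and 17.8 in OGA-null, and the highest was at 57.7 and 36.0. The distributions overlapped as wholes, but peak by peak OGA-null was the lower genotype at 1880 of 1883 peaks (99.8%). The median ratio was 0.689, or -0.54 on the log2 scale. This level rests on how the authors scaled the columns, which no source used here gives. A factor common to a column would move all ratios together and leave ranks and the spread of the ratios as they are; this need not hold if both replicates were scaled apart before they were combined.

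The ratios lay in a narrow band. They ran from 0.508 to 1.07, with 0.582 at the 5th, 0.642 at the 25th, 0.746 at the 75th and 0.830 at the 95th percentile. The 95th percentile was thus 1.43 times the 5th, and the SD of the log2 ratio over peaks was 0.16. At least 1.5-fold lower in OGA-null larvae were 704 peaks, 37.4% of all. A ratio of 0.8 or lower was found at 1713 peaks (91%), and at none was it 0.5 or lower (0%). Measured from the median ratio, 48 peaks (2.55%) were at least 25% above it and 20 peaks (1.06%) at least 20% below it. In signal per base, the OGA-null value minus the WT value had a median of -10.2, from -17.3 at the 5th to -4.58 at the 95th percentile. With no replicate values, it cannot be said how much of this band is wider than measurement error.

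**Figure D1:**
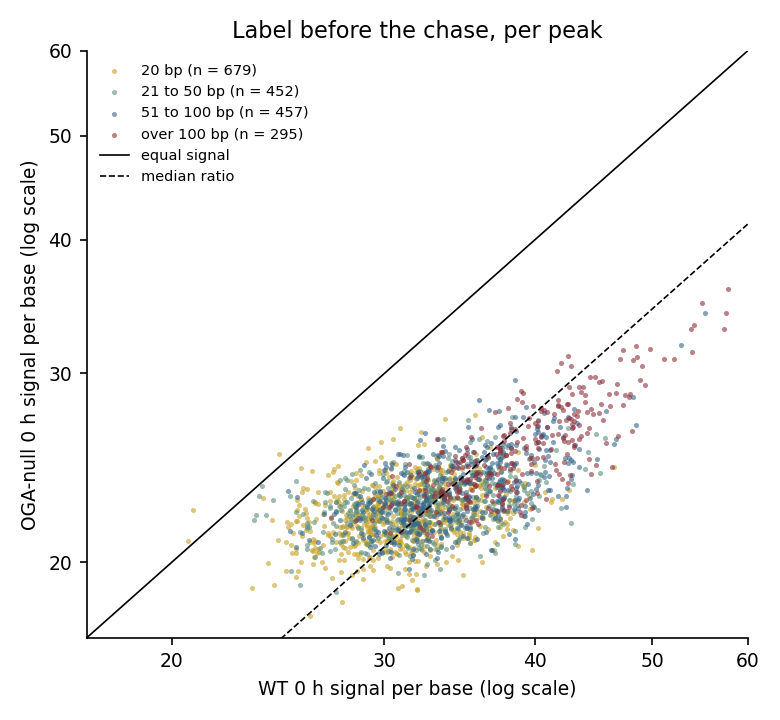
Signal per base at 0 h in OGA-null against WT larvae, both on log scales, 1 point per peak, coloured by peak width; the solid line marks equal signal and the dashed line the median ratio of 0.689. All but 3 of the 1883 points lie below the line of equality, and the cloud is flatter than the dashed line, with peaks of low WT signal above it and peaks of high WT signal below it.

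OGA-null exceeded WT at 3 peaks (0.159%), and each was 20 bp wide, the narrowest width in the list and that of 36.1% of all peaks. The peak on 3R at 19990412 to 19990431 had 20.8 per base in WT and 22.3 in OGA-null larvae, a ratio of 1.07. On 2R at 7473426 to 7473445, the signal per base was 24.5 in WT and 25.2 in OGA-null larvae, a ratio of 1.03. On X at 21271153 to 21271172, it was 20.6 and 20.9, a ratio of 1.01. All 3 stood near the bottom of the WT list, at ranks 1882, 1869 and 1883 where rank 1 is the highest signal per base. The next highest ratios were 0.991 on 2R at 14063689 to 14063721 and 0.977 on X at 1251016 to 1251055, also with WT ranks near the bottom, 1877 and 1878.

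At the other end, the 5 lowest ratios belonged to peaks high in the WT list, with WT ranks from 32 to 203. The lowest ratio, 0.508, was that of the peak on 2R at 3269316 to 3269352, with 42.8 per base in WT and 21.8 in OGA-null larvae. Next came 3R at 8883291 to 8883310, with 39.8 and 20.5 per base and a ratio of 0.516. A second peak on 2R, at 6670381 to 6670400, had 46.5 and 24.6 per base, a ratio of 0.528. Both remaining peaks were wider and had a ratio of 0.529. One lay on X at 21152160 to 21152235, with 44.1 and 23.3 per base, and one on 3R at 25319142 to 25319269, with 46.4 and 24.5 per base. In WT these 5 lay above the 75th percentile of all peaks. In OGA-null larvae 2 of them, those with ratios of 0.508 and 0.516, lay below the OGA-null median of 22.8, and the other 3 were above it.

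The peaks with the most label were largely the same in both genotypes. The peak on 3R at 7394839 to 7395055 ranked first in both, with 57.7 per base in WT and 36.0 in OGA-null. Other WT leaders were on X at 1965895 to 1966185 (57.5 per base in WT, 34.2 in OGA-null larvae), on 3R at 26591380 to 26591737 (57.3 and 33.0), on 2L at 13211944 to 13212007 (55.3 and 34.2) and on 2L at 12461212 to 12461403 (54.99 and 34.9). Of these 5, 4 were also among the 5 highest of OGA-null larvae. That on 3R at 26591380 stood at rank 6 there, and its place was taken by the peak on 3R at 19685187 to 19685462 (54.2 and 33.3 per base). All 6 had ratios between 0.576 and 0.635, below the median ratio of 0.689. The 3 widest peaks did too. The widest, 557 bp on 3L at 9369687 to 9370243, had 52.1 per base in WT and 30.9 in OGA-null larvae, a ratio of 0.593. The next, 478 bp on X at 19047364 to 19047841, had 47.9 and 28.7 per base, a ratio of 0.599. That of 450 bp on 3L at 6957450 to 6957899 had 45.4 and 28.1 per base, a ratio of 0.619.

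The OGA-null signal at 0 h was the most even over peaks of all 16 columns of the table. Its SD of log2 signal per base was 0.13, against 0.20 in WT at 0 h. The OGA-null interquartile range was 2.39 per base, against 6.19 in WT. In OGA-null larvae the 5th percentile stood at 89.7% of the median and the 95th at 119%, against 81.4% and 130% in WT. The low side was short as well: the lowest peak had 78.3% of the median in OGA-null larvae and 62.8% in WT. The evenness was not shared by the OGA-null column of 4 h later. There the median signal per base was 22.4, close to the 22.8 of 0 h, while the SD of log2 signal per base was 0.24, with 75.9% of the median at the 5th and 132% at the 95th percentile. The WT column at 4 h had a median of 15.9 per base and an SD of 0.26. No source used here says how the peaks were called, and whether a column at 0 h served to choose them was not tested.

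**Figure D2:**
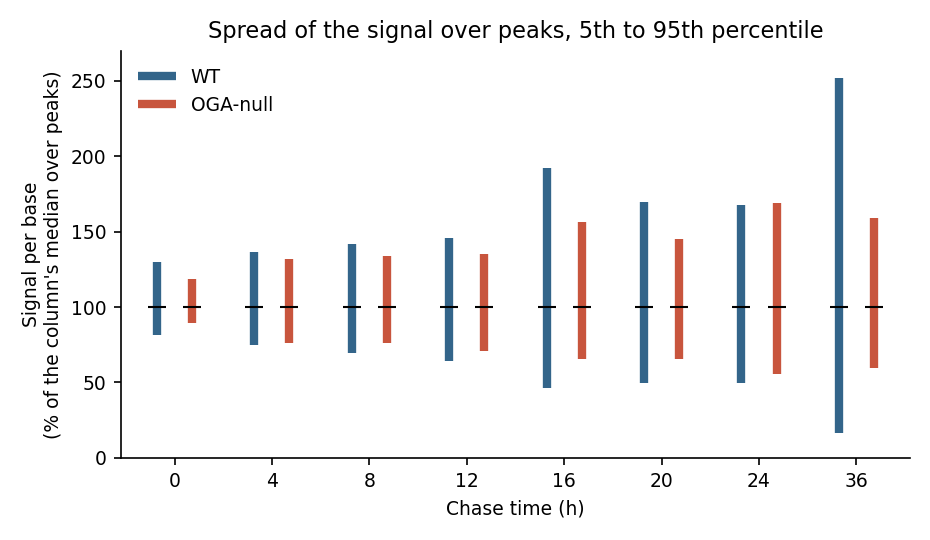
Bars span the 5th to the 95th percentile over peaks of the signal per base, as a percent of the median of the column (black tick), for WT and OGA-null larvae at each chase time. The OGA-null bar at 0 h, from 89.7 to 119%, is the shortest of the 16, and at 4 h the bars of both genotypes are of similar length.

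The ratio was lower where the WT signal was higher. Peaks were sorted by WT signal per base at 0 h into 5 quintiles of 376 or 377 peaks. The lowest quintile, with a median of 28.1 per base in WT and 21.9 in OGA-null, had a median ratio of 0.783. The next quintiles had 0.721, 0.689 and 0.654. The highest, with medians of 40.1 and 25.0 per base, had 0.616. At least 1.5-fold lower in OGA-null larvae were 1 peak of the lowest quintile (0.266%) and 317 of the highest (84.1%), beside the 37.4% of all peaks. Over peaks, Spearman's rho of the ratio was -0.81 with the WT signal and 0.0017 with the OGA-null signal. A fitted line of log2 OGA-null on log2 WT signal per base had a slope of 0.39. The reverse fit, log2 WT on log2 OGA-null, had a slope of 1.05, so the slope depends on which genotype is fitted on the other. By quintiles of the mean log2 signal of both genotypes, the median ratio was 0.763 in the lowest and 0.637 in the highest. Spearman's rho with that mean was -0.58. The WT signal is the denominator of the ratio, so scatter in it alone gives a falling relation. The OGA-null signal is the numerator, so scatter in it alone gives a rising relation, and the 0.0017 need not mean no relation. These figures are descriptions without a test.

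Sorting the peaks by columns from other libraries left a smaller slope of the same direction. By WT signal at 4 h, the median ratio at 0 h was 0.727 in the lowest and 0.652 in the highest quintile. By OGA-null signal at 4 h it was 0.731 and 0.648. Spearman's rho of the 0 h ratio was -0.31 with either 4 h column and lay between -0.15 and -0.29 with the WT and OGA-null columns from 8 to 24 h. At 36 h it was 0.072 with the WT column, whose median signal was 0.169 per base, and -0.23 with the OGA-null column. In each width class the ratio also ran against the WT 4 h signal, with rho of -0.13 at 20 bp, -0.29 at 21 to 50 bp, -0.27 at 51 to 100 bp and -0.34 over 100 bp. The points of such a correlation share libraries and neighbouring bases.

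Wider peaks had the lower ratio and the tighter spread. The median ratio was 0.709 in the 679 peaks of 20 bp, 0.704 in the 452 of 21 to 50 bp, 0.678 in the 457 of 51 to 100 bp and 0.660 in the 295 wider ones. The SD of the log2 ratio was 0.16 in each of the 2 narrower classes, 0.14 in the next and 0.12 in the widest. At least 1.5-fold lower were 29.5% of the peaks of 20 bp and 55.3% of those over 100 bp, around the 37.4% of all. Of the 48 peaks at least 25% above the median ratio, 31 were 20 bp wide and none was over 100 bp. These were 4.57% of the peaks of 20 bp and 0% of those over 100 bp, beside 2.55% of all. Wider peaks also had more signal per base, with a WT median of 38.2 over 100 bp and 31.3 at 20 bp, and an OGA-null median of 24.9 and 22.1. Within quintiles by WT 4 h signal, rho of the ratio with width was weak, between -0.056 and -0.20, beside -0.26 over all peaks. Within quintiles by WT 0 h signal, the denominator of the ratio, the order was mostly reversed. The median ratio at 20 bp and over 100 bp was 0.582 and 0.632 in the highest quintile, and 0.635 and 0.677 in the next. It was 0.681 and 0.698 in the middle, 0.716 and 0.744 in the second lowest, and 0.781 and 0.775 (4 wide peaks) in the lowest.

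**Figure D3:**
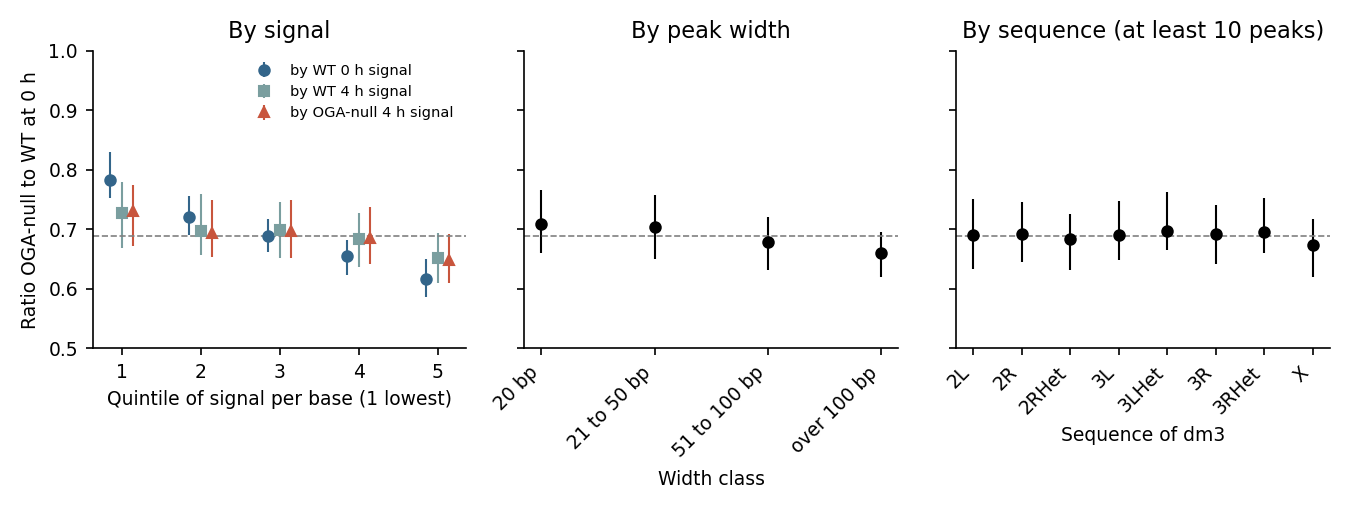
Median 0 h ratio of OGA-null to WT (points) with the 25th to 75th percentile over peaks (bars), by quintile of signal per base in 3 columns, by peak width, and by sequence of the build with at least 10 peaks; the dashed line is the median ratio of all peaks, 0.689, and the axis starts at 0.5. The ratio steps down from 0.783 to 0.616 over quintiles of WT 0 h signal and less over quintiles of the 4 h columns, and from 0.709 to 0.660 over width, while the sequences lie between 0.675 and 0.698.

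Over sequences with at least 10 peaks, median ratios ran from 0.675 to 0.698. Median ratios were 0.690 on 2L (373 peaks), 0.693 on 2R (397), 0.691 on 3L (408) and 0.691 on 3R (482). The X chromosome had the lowest median of the sequences with at least 10 peaks, 0.675 over 141 peaks, with 34.2 per base in WT and 22.9 in OGA-null. The 4 autosomal arms together had 0.691, with 32.7 and 22.7 per base. On X 47.5% of the peaks were at least 1.5-fold lower, beside 36.9% on the autosomal arms and 37.4% of all. Peaks on X were wider, with a median of 57 bp against 36 bp. Within a width class the median ratio of X and of the autosomal arms was 0.703 and 0.711 at 20 bp, 0.707 and 0.704 at 21 to 50 bp, 0.644 and 0.679 at 51 to 100 bp, and 0.649 and 0.660 over 100 bp. X was thus the lower in 3 of the 4 width classes and the higher at 21 to 50 bp, with 28 to 39 peaks on X per class. The gap had no stable size. In the class of the widest gap, 51 to 100 bp, median WT signal was also higher on X, at 35.7 against 34.1 per base. Over 100 bp it was lower on X, at 37.4 against 38.2.

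The 81 peaks on heterochromatin sequences had a median ratio of 0.691, against 0.689 on the 5 major arms, although their median width was 20 bp against 37 bp. Their medians were 0.684 on 2RHet (28 peaks), 0.698 on 3LHet (21) and 0.695 on 3RHet (28). XHet held 3 peaks with a median of 0.715, and 2LHet and chromosome 4 held 1 peak each, at 0.680 and 0.804. Among 25 windows of 5 Mb that held at least 10 peaks, 23 had medians from 0.671 to 0.704. Both exceptions were on X: 0.643 from 10000001 to 15000000, where the 27 peaks had a median width of 94 bp, and 0.762 from 20000001 to 25000000, over 10 peaks with a median width of 23.5 bp.

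Binding sites of OGA were taken from the deposited list of 3534 intervals without a score. Over all widths together, peaks near them had slightly higher median ratios than farther ones. The 81 peaks that overlapped an OGA interval by at least 1 bp had a median ratio of 0.704, with 33.3 per base in WT and 23.3 in OGA-null. The 411 peaks with OGA within 1 kb had 0.692, and the 1391 farther ones had 0.687. At least 1.5-fold lower were 29.6% of the overlapping peaks, 37.2% of those within 1 kb and 37.9% of the farther ones, beside 37.4% of all. By width, overlapping peaks and those farther than 1 kb had median ratios of 0.738 (18 peaks) and 0.705 at 20 bp, 0.722 (15 peaks) and 0.705 at 21 to 50 bp, 0.674 (25 peaks) and 0.675 at 51 to 100 bp, and 0.679 (23 peaks) and 0.661 over 100 bp. Peaks with OGA within 1 kb had median ratios of 0.714 at 20 bp and 0.689 at 51 to 100 bp, above the farther ones. They had 0.692 at 21 to 50 bp and 0.646 over 100 bp, below the farther ones. The ChIP-seq list covers a WT and an OGA-null library together, so intervals of the larvae that lack the target could not be set apart.

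Adjacent peaks resembled each other little in the ratio. For 348 pairs of neighbours less than 1 kb apart, rho of the log2 ratio was 0.093, beside 0.24 for the WT signal per base and 0.21 for the OGA-null signal. For 514 pairs 1 to 10 kb apart it was 0.027, and for 1010 pairs farther apart 0.049.

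The order of peaks changed about as much between genotypes as between times within a genotype. Spearman's rho of the signal per base over peaks was 0.55 between WT and OGA-null larvae at 0 h, 0.60 between WT at 0 and 4 h, and 0.56 between OGA-null at 0 and 4 h. The median peak moved by 330 places of 1883 between genotypes, by 284 between the WT times and by 326 between the OGA-null times. Over 500 places moved 635 peaks (33.7%) between genotypes, 566 (30.1%) within WT and 604 (32.1%) within OGA-null larvae. Of the 188 peaks in the top decile of either list, 121 were shared between genotypes at 0 h (64.4% of each), 118 between the WT times (62.8%) and 111 between the OGA-null times (59.0%). The lowest deciles were shared less, with 50 of 188 (26.6%) between genotypes, 58 (30.9%) within WT and 53 (28.2%) within OGA-null larvae. These are descriptions over peaks with no test.

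The upper end of the list was the stable one as a whole, though not for its narrow peaks. Of the WT top decile, 182 of 188 peaks (96.8%) stood above the middle of the OGA-null list, with a median OGA-null rank of 130. The lowest quintile of the WT list had a median OGA-null rank of 1345, the middle quintile one of 971 and the highest one of 269. Within the highest quintile the median move was 68 places over 100 bp (168 peaks) and 176 at 51 to 100 bp (121 peaks). It was 433.5 places at 21 to 50 bp (48 peaks) and 677 at 20 bp (40 peaks). Wide peaks kept their place: within the class over 100 bp rho between genotypes was 0.78, against 0.54 at 51 to 100 bp, 0.34 at 21 to 50 bp and 0.28 at 20 bp. The median move was 120 places for peaks over 100 bp and 395 places for those of 20 bp. The same order by width held within a genotype, where rho between 0 and 4 h was 0.81 in WT and 0.80 in OGA-null larvae over 100 bp, and 0.35 and 0.36 at 20 bp.

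**Figure D4:**
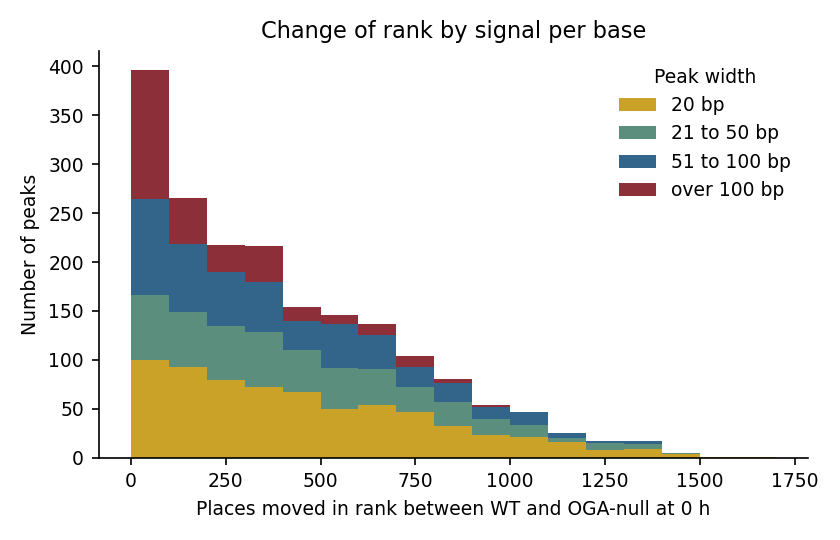
Number of peaks (vertical axis) by places moved between the WT and the OGA-null list at 0 h, in bins of 100 places, stacked by peak width. The median peak moved by 330 places, and peaks over 100 bp are concentrated at small moves.

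The largest moves were those of narrow peaks. The peak on 2R at 7473426 to 7473445 rose by 1631 places, from WT rank 1869 to OGA-null rank 238, on a change from 24.5 to 25.2 per base. On 3L at 2586418 to 2586437, a peak with 25.6 per base in WT and 24.5 in OGA-null larvae rose by 1468 places, and on 2R at 19966126 to 19966145 one with 26.1 and 24.3 per base rose by 1415. The last of these overlapped an OGA interval. The largest fall, by 1573 places from 203 to 1776, was that of the peak on 3R at 8883291 to 8883310. The peak on 2R at 19547070 to 19547089, with 38.7 and 20.7 per base, fell by 1487 places. The peak on 3L at 23299807 to 23299838, with 38.5 and 20.8 per base, fell by 1444 places. The OGA-null values of these 6 peaks lay between 20.5 and 25.2 per base.

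The peaks at both ends of the 0 h ratio were followed in the later columns, which hold other libraries. At 0 h, the 188 peaks with the highest ratio (0.794 to 1.07) had a median log2 ratio 0.27 above that of all peaks, and the 188 with the lowest (0.508 to 0.601) stood at -0.24 from it. At 4 h the medians of the same peaks, measured from all peaks at that time, were 0.029 and -0.040. Above the median of all peaks at 4 h were 103 of the 188 with the highest 0 h ratio (54.8%), and below it were 115 of the 188 with the lowest (61.2%). The medians from all peaks were 0.011 and -0.047 after 8 h of chase and 0.063 and -0.0095 after 12 h. After 24 h they were -0.073 and 0.025. After 36 h they were -0.29 and 0.31, over the 1848 peaks with WT signal above 0 at that time, when the WT median was 0.169 per base. The medians were -0.025 and -0.036 after 16 h and -0.020 and -0.072 after 20 h, so both groups then stood below all peaks. From 4 to 20 h the group with the highest 0 h ratio stood above the other by 0.011 to 0.073 log2. At 0 h the gap was 0.51, but there it is set by the choice of the groups. The group with the highest 0 h ratio stood below the other at 24 and 36 h. Over peaks, Spearman's rho of the 0 h log2 ratio with the ratio after 4, 8 and 12 h of chase was 0.046, 0.075 and 0.041. With the ratio after 16, 20, 24 and 36 h it was 0.022, 4.5e-05, -0.049 and -0.15. The 4 h libraries share genotype and feeding with those of 0 h but differ by the chase, so they are no replicates of it.

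**Figure D5:**
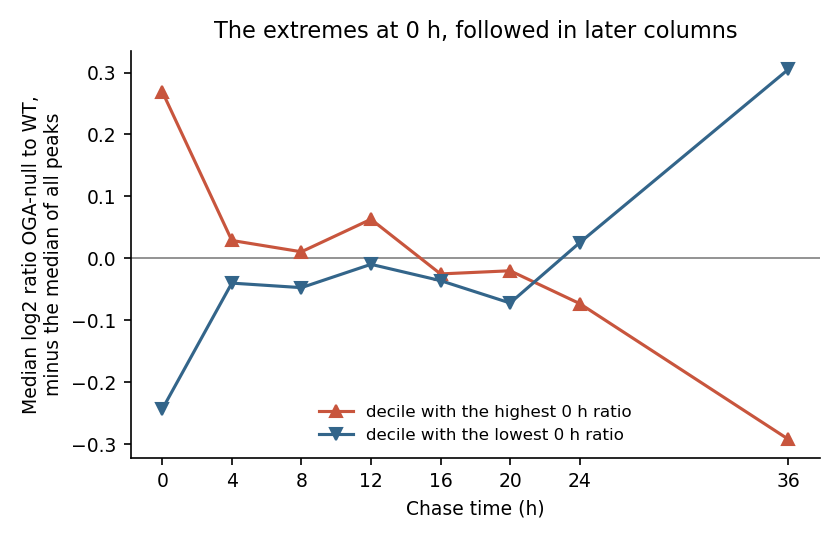
Log2 ratio of OGA-null to WT as a median, relative to the median of all peaks at the same chase time, for the 188 peaks with the highest and the 188 with the lowest ratio at 0 h, up to 36 h. The groups were chosen at 0 h, so their medians there, 0.27 and -0.24, are set by the choice; at 4 h they stand at 0.029 and -0.040, and at 36 h at -0.29 and 0.31.

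At 4 h the median ratio was 1.40, and the 5 peaks with the highest and the 5 with the lowest 0 h ratio stood on both sides of it. The 3 peaks with OGA-null above WT at 0 h then had ratios of 1.66 on 3R, 1.72 on 2R and 1.13 on X. The next in order, on 2R at 14063689 and on X at 1251016, had 1.31 and 1.48. Of these 5, 3 were above the median ratio of that time. The peak of the lowest 0 h ratio, on 2R at 3269316, had 14.55 per base in WT and 17.96 in OGA-null larvae at 4 h, a ratio of 1.23. That on 3R at 8883291 had 14.8 and 20.96, a ratio of 1.42. The other 3 had ratios of 1.37 on 2R at 6670381, 1.18 on X at 21152160 and 1.32 on 3R at 25319142. Of the 5 lowest at 0 h, 4 were below the median ratio at 4 h.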

How the data were processed

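The deposited table lists 1 signal value of each peak for every genotype and time. Per the file headers, the authors combined replicates 1 and 2 in each signal column. In the WT 0 h column all 1883 values were multiples of 0.5. Per the submitters' processing notes, tools included bedtools 2.17.0 and SAMtools, with builds dm3 and sacCer3; no source used here gives the aligner, peak caller or scaling.

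Signal was divided by width (end minus start), and ratios used no pseudocount. Quintiles, deciles and ranks broke ties by position. Peaks named in the text are the 5 highest and 5 lowest ratios, all with OGA-null above WT, the 5 highest per genotype, the 3 largest rises and falls in rank and the 3 widest. Peaks and rules were chosen with earlier results of these data known. No test was run, because replicates are combined; peaks are not replicates. The calculations (Python 3.11.15, pandas 2.3.3, SciPy 1.17.1) were tested on simulated data. The alternatives covered the pseudocount, a filter on low signal, major arms, width, merging and the fold.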

Additional observations from a re-analysis of the deposited data

How the results depend on the processing

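Of 49 recomputed values over 7 results, 30 stayed within set limits. These were 0.1 for correlations, and 1.5 times with the same sign for counts and log2 gaps. For the median ratio the limit was the binomial 95% interval of the median over peaks, 0.684 to 0.694. That interval treats peaks as independent and holds no replicate or scaling error, so it gives no precision of the genotype ratio. Some outcomes were fixed beforehand. Adding 1 per base cannot change a rank correlation, and keeping only major arms cannot change the X minus autosomal gap. Other folds are other thresholds. The tally is therefore no measure of robustness. The median ratio was 0.698 with 1 added per base, 0.682 without the decile of peaks of lowest signal, 0.680 without peaks of 20 bp and 0.670 as a ratio of summed signal. Peaks with a ratio of 0.8 or lower numbered 1713, and those lower by 2-fold 0, against 704 by 1.5-fold. Spearman's rho between genotypes was 0.956 for total signal, which holds the width of each peak, against 0.55 per base. With 1 bp added to each width it was 0.615, so the ranks per base depend on how width is counted. This change was not made for the comparisons between times. The log2 gap between the lowest and highest quintile was 0.16 by WT 4 h signal, against 0.35 by WT 0 h signal. The X minus autosomal gap was -0.035 log2 in all, -0.017 at 20 bp, 0.0056 at 21 to 50 bp, -0.076 at 51 to 100 bp and -0.026 over 100 bp. The heterochromatin minus major arm gap was 0.0034 in all, 0.0059 with 1 added per base, 0.0204 without the lowest decile, 0.021 without peaks of 20 bp and 0.0095 with peaks closer than 500 bp merged. By width it was -0.040 at 20 bp (41 heterochromatin peaks) and -0.033 at 21 to 50 bp (25 peaks). It was 0.056 at 51 to 100 bp (11 peaks) and 0.0204 over 100 bp (4 peaks). The sign was thus not stable, and the classes with a positive gap held few heterochromatin peaks. No paired analysis was possible because each column combines both replicates; leaving out a replicate was not possible for the same reason. Unknown depth limits every value.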
